A study of Mus musculus with 18 samples.

Results

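The chaperonin genes described here are 10 of the 21883 mouse protein-coding genes placed on chromosomes 1 to 19, X and Y: the 8 subunit genes of the cytosolic CCT ring (Tcp1, Cct2, Cct3, Cct4, Cct5, Cct6a, Cct7 and Cct8) and the mitochondrial pair Hspd1 and Hspe1. They were taken by name, and a gene was counted as having a MYC peak when the summit of a deposited peak lay within 1 kb of either end of its RefSeq span. MYC occupancy was measured by ChIP-seq (sequencing of DNA pulled down with a MYC antibody) in liver tumours from FVB mice, frozen before use, with 3 MYC libraries and 3 input libraries in each of 3 Arid1a genotypes. WT tumours (Arid1aflfl without Cre) came at about 55 days of age, Het tumours (Arid1afl/+ with Alb-cre) at about 70 days and Homo tumours (Arid1afl/fl with Alb-cre) at about 100 days. All groups carried the liver-driven LAP-tta activator and the TRE-MYC transgene, which is switched on when doxycycline water is withdrawn, and tumours were taken at death. Alb-cre acts in cells that express albumin, so other cells of a tumour keep their alleles. Age changed together with genotype and cannot be told apart from it. The presence of Cre differed only between WT and the other groups, and cannot be told apart from genotype there. The comparison addresses whether MYC sits at these genes in tumours that differ in Arid1a, whose protein belongs to the SWI/SNF chromatin remodelling machinery.

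Chaperonins are double-ring or ring-shaped protein chambers in which a newly made or unfolded protein is enclosed and folded with the use of ATP. The CCT complex (also TRiC) is built in the cytosol from different but related subunits that occupy fixed places in each ring, and folds actin, tubulin and many WD-repeat proteins. Hspd1 encodes HSP60, the chamber of the mitochondrial matrix, and Hspe1 encodes HSP10, its lid. Their genes lie head to head. MYC is a transcription factor that binds DNA with MAX at E-box sequences, of which CACGTG is the best known, and it is known for binding near the starts of many genes of growth and protein synthesis.

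The sequences below are 4 RefSeq start windows of chaperonin genes (250 bases before to 50 after an annotated start, build GRCm38.p6), shown because each contained a chaperonin summit and an E-box letter string. The strings searched were the canonical CACGTG, the variant CACGCG (on the other strand read as CGCGTG), the variant CACATG (on the other strand read as CATGTG) and the variant CACGAG (on the other strand read as CTCGTG). Matches are in capitals. The Cct6a window also held 2 summits but none of the strings, and is not shown. RefSeq sequence comes from another strain than the FVB tumours. The table had a window for 9 of the 10 genes, 12 windows in all, and the missing entry was Cct4. The windows are the inner of 2 Cct2 starts (chr10:117063326-117063625, minus strand), Cct3 (chr3:88296885-88297184, plus strand), the inner of 2 Cct5 starts (chr15:31601490-31601789, minus strand) and the outer of 2 Hspd1 starts (chr1:55088194-55088493, minus strand).
Cct2: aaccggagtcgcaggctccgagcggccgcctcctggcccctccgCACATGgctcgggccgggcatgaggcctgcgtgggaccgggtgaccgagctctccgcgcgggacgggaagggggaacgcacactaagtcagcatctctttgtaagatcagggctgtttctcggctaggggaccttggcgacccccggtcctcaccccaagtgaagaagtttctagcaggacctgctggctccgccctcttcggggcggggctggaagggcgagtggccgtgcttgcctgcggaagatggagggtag
Cct3: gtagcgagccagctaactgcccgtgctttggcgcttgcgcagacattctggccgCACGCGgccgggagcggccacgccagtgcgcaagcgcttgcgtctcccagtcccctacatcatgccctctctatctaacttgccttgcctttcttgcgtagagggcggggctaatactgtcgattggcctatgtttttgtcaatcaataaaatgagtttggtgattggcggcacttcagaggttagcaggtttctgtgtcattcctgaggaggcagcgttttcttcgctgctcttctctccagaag
Cct5: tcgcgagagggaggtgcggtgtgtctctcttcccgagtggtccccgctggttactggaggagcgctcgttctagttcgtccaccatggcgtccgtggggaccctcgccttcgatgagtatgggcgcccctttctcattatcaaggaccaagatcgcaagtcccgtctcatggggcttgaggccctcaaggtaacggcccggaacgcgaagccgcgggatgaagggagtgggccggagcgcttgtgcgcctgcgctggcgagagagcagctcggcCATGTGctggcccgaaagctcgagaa
Hspd1: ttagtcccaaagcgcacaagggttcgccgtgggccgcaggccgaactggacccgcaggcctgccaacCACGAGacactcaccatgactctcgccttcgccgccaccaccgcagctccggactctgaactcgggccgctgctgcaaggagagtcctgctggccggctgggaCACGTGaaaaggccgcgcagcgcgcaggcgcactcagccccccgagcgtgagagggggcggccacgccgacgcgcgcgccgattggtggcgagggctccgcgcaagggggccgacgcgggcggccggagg
Each of these windows holds a match within 60 bp of a MYC summit, as given below with the genes, and the outer Hspd1 window also holds the canonical CACGTG. Among all 32851 windows in the table, 7.15% held CACGTG, 9.27% CACGCG, 14.2% CACATG and 6.47% CACGAG, and 32.4% at least 1 of the 4. Among the 1840 windows that contained a summit of any peak of the series these shares were 26.1%, 43%, 11.5%, 17.9% and 74.2% in the same order. A match is a run of letters and not a shown binding site.

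The 9 lists were called per library and held from 51 peaks (Homo replicate 2) to 4291 peaks (WT replicate 3). Read depth was estimated from the peak values, as the lowest background of a list over its narrowest peak width, taken as the fragment length. It was 3.37 to 6.27 reads per kb in the input and 7.80 to 15.2 in the MYC libraries. By this estimate every WT input was deeper than every Homo input. For WT replicate 1 and Homo replicate 1 that order rests on the widths (170 and 201 bp), as the lowest backgrounds were 0.687 and 0.742. WT replicate 1 and Homo replicate 2 stood apart, with 15.2% and 17.6% of their peaks at protein-coding gene ends against 43.9% to 64.4% in the other 7 libraries. The labels do not state whether the replicates of a genotype are different mice, and the p-values below therefore reflect library spread alone, which may be technical. Peak lists of MYC do not check the tissue: of marker genes, 2 of 6 hepatocyte genes had a peak, each in 1 library, and 0 of 6 immune, 0 of 6 endothelial and stellate and 0 of 4 cholangiocyte genes had one.

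All 10 chaperonin genes had a MYC peak at an end in at least 2 of the 9 libraries, and no subunit lacked a peak. Among all protein-coding genes 14.9% had a peak in at least 1 library, 8.03% in at least 2 and 3.03% in at least 4, and 7 of the 10 chaperonin genes had one in at least 4. The median number of libraries was 4 over the chaperonin genes (2 to 6) and 0 over all protein-coding genes. The genes were chosen with earlier results of these data known, so these counts describe them and carry no test. Per library, 0 of 10 genes had a peak in WT replicate 1, 7 in WT replicate 2 and 10 in WT replicate 3, where 0.0731%, 4.86% and 14.1% of all genes had one. In Het replicates 1, 2 and 3 the counts were 9, 9 and 4, against 5.58%, 6.14% and 0.855% of all genes. Homo replicates 1 and 2 had 0 (0.324% and 0.0548% of all genes), and Homo replicate 3 had 2 (0.919%), which were Hspd1 and Hspe1 through 1 shared peak. The libraries with many chaperonin peaks were thus those with long lists.

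**Figure D1:**
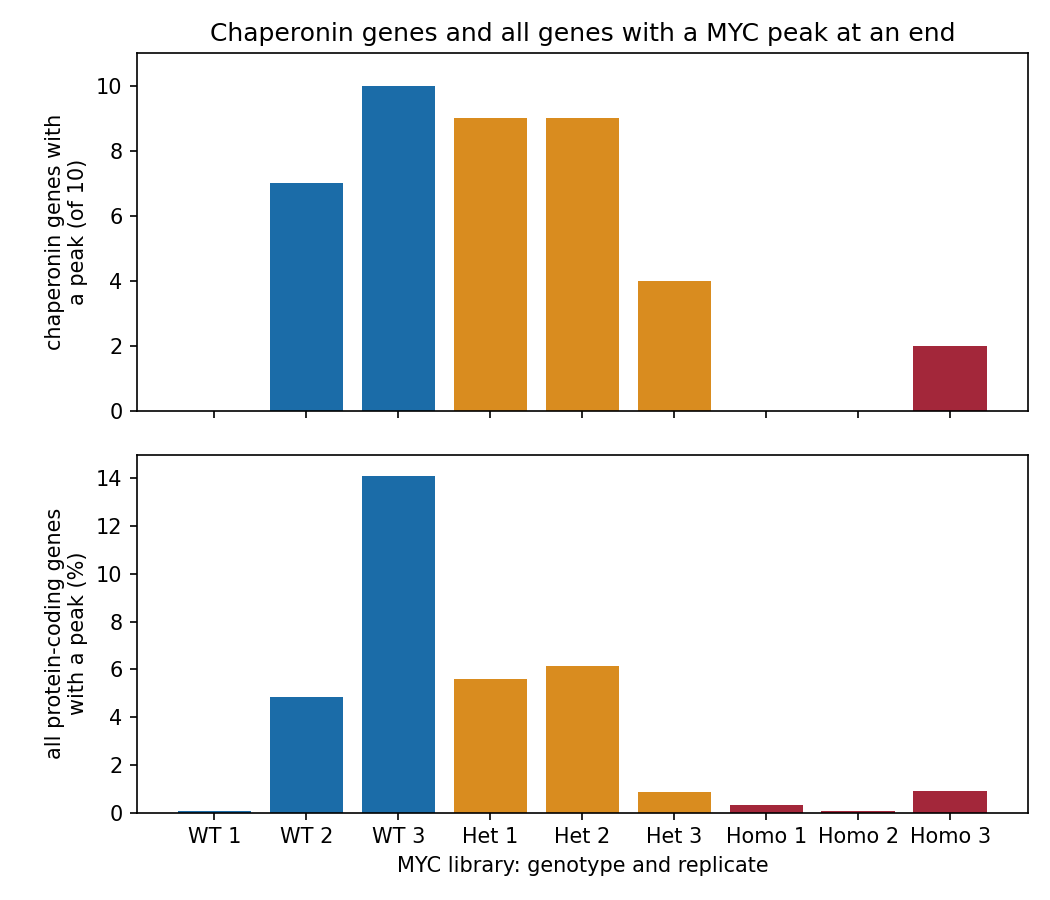
Number of the 10 chaperonin genes with a MYC peak within 1 kb of an end (top) and percent of all protein-coding genes with one (bottom) in each MYC library, coloured by genotype (blue WT, orange Het, red Homo). The top bars are 0 in WT 1, Homo 1 and Homo 2, where the lower bars are at most 0.324%, and reach 10 in WT 3, where the lower bar is highest at 14.1%.

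The peaks fell into 12 regions (summits less than 300 bp apart), with 42 distinct peaks in all. Of the 12 regions, 6 also lay within 1 kb of a span end of another protein-coding gene outside the set, and 7 counting annotated starts inside a span (Mrpl18 at Tcp1), so the gene that a peak belongs to cannot be told apart there. Within a region the summits of different libraries spread over 21 to 108 bp. The fold quoted for each peak is the authors' enrichment over local background at the summit, and rank is by -log10 p within the library's own list. The lists differ in length, so folds and ranks are set beside each other as descriptions.

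**Figure D2:**
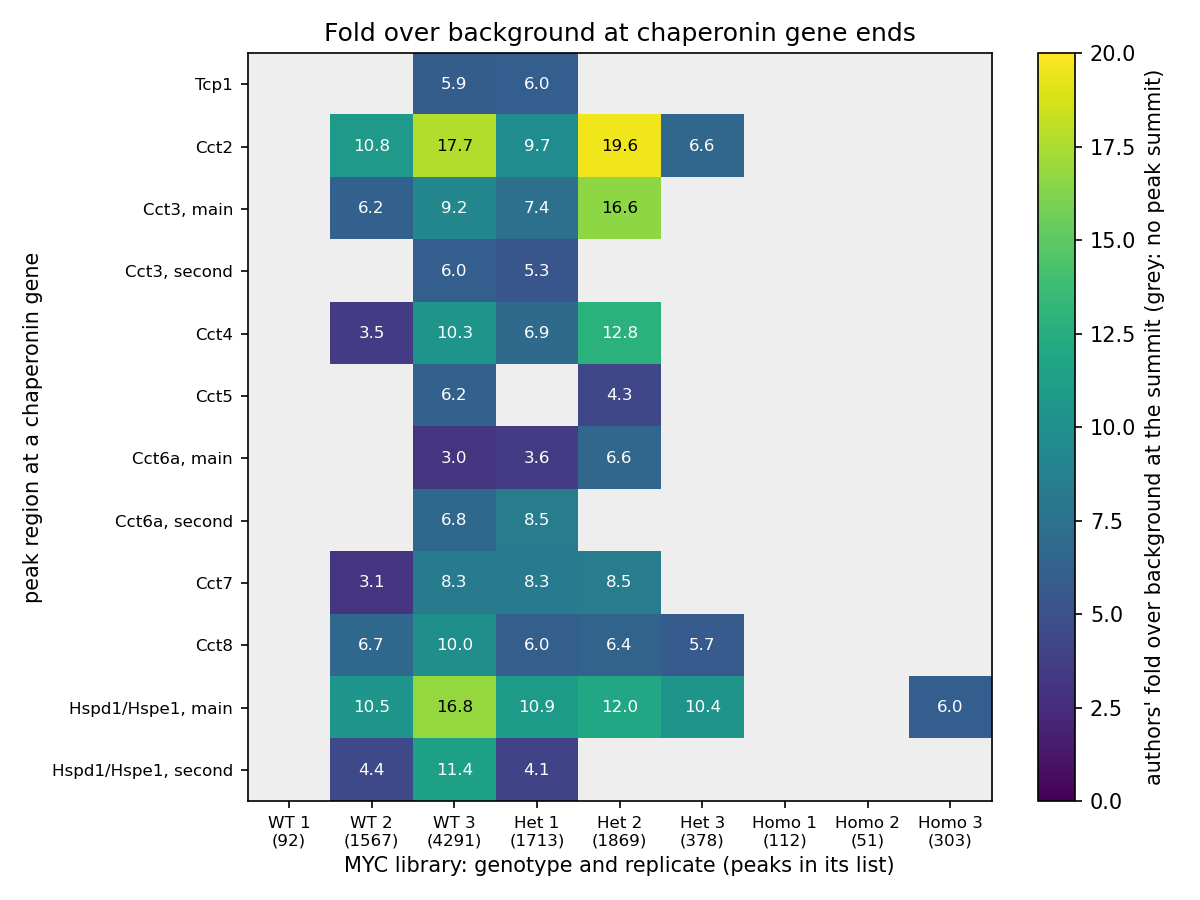
The authors' fold over background at the summit for each chaperonin peak region (rows) in each MYC library (columns, with the number of peaks in its list), where grey marks no peak summit. Filled cells lie in WT 2, WT 3 and the Het libraries, and the only one under Homo is 6.0 at Hspd1/Hspe1 in Homo 3.

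Cct2, which encodes the beta subunit of the ring, had the highest fold of the set (chromosome 10, span 117050997 to 117063852, mm10). Its fold was 10.8 in WT replicate 2, 17.7 in WT replicate 3, 9.75, 19.6 and 6.61 in Het replicates 1 to 3, and WT replicate 1 and the 3 Homo libraries had no peak. The WT and Het folds overlapped. The peak ranked 28 of 1869 in Het replicate 2 and 50 of 4291 in WT replicate 3, where 82 and 107 MYC reads stood over a scaled background of 2.15 and 4.20. In Het replicate 3 it ranked 126 of 378, on 55 reads. The 5 summits lay 262 to 295 bp inside the gene from its outer start and 182 to 215 bp before the inner start, all inside the Cct2 window printed above. The CACATG there (chr10:117063576-117063581, bases 45 to 50 of the window) was -21.5 to 11.5 bp from the summits (summit minus centre of the string). No other gene had an end within 1 kb.

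Cct8, which encodes the theta subunit, also had a peak in 2 WT and 3 Het libraries (chromosome 16, span 87483325 to 87495869). Its folds were lower: 6.69 and 9.98 in WT replicates 2 and 3, and 6.02, 6.41 and 5.73 in Het replicates 1 to 3. The highest value was that of WT replicate 3, and the other 4 lay within 5.73 to 6.69. The summits lay 406 to 455 bp before the Cct8 start, and were closer to the start end of the lncRNA B130034C11Rik (202 to 251 bp). They lay outside the RefSeq windows of both genes, which hold none of the 4 strings.

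Cct3, Cct4 and Cct7 each had a peak in 2 WT and 2 Het libraries, and none in WT replicate 1, Het replicate 3 or a Homo library. Cct3 encodes the gamma subunit (chromosome 3, span 88297135 to 88321766). Its main region had folds of 6.23 and 9.24 in WT replicates 2 and 3 and 7.39 and 16.6 in Het replicates 1 and 2, and ranked 49 of 1869 in the last of these. The WT and Het values overlapped. The summits lay 185 to 235 bp before the Cct3 start and 49 to 99 bp from the start end of Tsacc, which is read away from Cct3, so they also fell in a Tsacc start window. The CACGCG of the window printed above (chr3:88296939-88296944) lay -41.5 to 8.5 bp from them. A second, weaker region stood 686 to 779 bp before the Cct3 start, with folds of 5.99 in WT replicate 3 and 5.35 in Het replicate 1.

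Cct4, the delta subunit gene (chromosome 11, span 22990593 to 23003336), had folds of 3.52 and 10.3 in WT replicates 2 and 3 and of 6.91 and 12.8 in Het replicates 1 and 2. The value in WT replicate 2 ranked 1522 of 1567, close to the foot of that list, and that in Het replicate 2 ranked 176 of 1869. The summits lay 67 to 175 bp inside the span from its lower end. Its 108 bp between the lowest and highest summit was the widest spread of the 12 regions. No other gene had an end within 1 kb.

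Cct7, the eta subunit gene (chromosome 6, span 85451505 to 85468477), had folds of 3.11 and 8.33 in WT replicates 2 and 3 and of 8.26 and 8.48 in Het replicates 1 and 2. The last 3 were nearly equal, and the value in WT replicate 2 was lowest, ranking 1527 of 1567. That peak held as many MYC reads (59) as the one in WT replicate 3 (59), over a scaled background of 17.5 against 5.35. MYC depth was 13.7 and 11.1 reads per kb in these libraries, and the numbers are not scaled for it. The summits lay 640 to 697 bp inside Cct7 and 158 to 215 bp from the start end of Pradc1, which overlaps Cct7 head to head. All 4 fell in the RefSeq window of Pradc1, which holds none of the 4 strings.

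Cct6a, Cct5 and Tcp1 had a peak in the fewest libraries (3, 2 and 2). Cct6a, the zeta subunit gene (chromosome 5, span 129787356 to 129846443), had a peak at its start in 3 libraries, with folds of 2.97 in WT replicate 3, 3.57 in Het replicate 1 and 6.64 in Het replicate 2. The first 2 ranked 4276 of 4291 and 1700 of 1713, so they were among the weakest of their lists. These summits lay 28 to 80 bp inside Cct6a and 7 to 59 bp from the start end of Psph, a serine synthesis gene, and also fell in a Psph start window. The Cct6a window held 2 of them, and neither window holds any of the 4 strings. At the other end of the Cct6a span a region with folds of 6.77 (WT replicate 3) and 8.51 (Het replicate 1) lay 509 to 560 bp past Cct6a but 13 to 38 bp from the start of Sumf2. Counting gene starts alone, this region does not belong to Cct6a. Its summits fell in the Sumf2 start window, which holds none of the 4 strings.

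Cct5, the epsilon subunit gene (chromosome 15, span 31590800 to 31601846), had a fold of 6.22 in WT replicate 3 and 4.29 in Het replicate 2. The summits lay 24 and 56 bp inside the gene from its inner start, and 601 to 633 bp from an end of Atpsckmt. The CATGTG of the Cct5 window (chr15:31601510-31601515) was 2.5 bp from the Het summit and -29.5 bp from the WT summit. In Het replicate 1 a peak with a fold of 6.72 lay 1443 bp from the same end, outside the 1 kb limit, and was the only peak between 1 and 5 kb of an end of the 10 genes. The farthest summit inside the limit was that of the second Cct3 region, at 779 bp. Tcp1, which encodes the alpha subunit (chromosome 17, span 12916329 to 12925067), had folds of 5.87 in WT replicate 3 and 5.98 in Het replicate 1, with 41 and 50 MYC reads, 74 and 95 bp inside the gene. They also lay 312 to 333 bp from an annotated start of Mrpl18, a mitochondrial ribosomal protein gene that is read the other way (start at 12916091). These values were alike and ranked in the lower part of both lists (2718 of 4291 and 1316 of 1713). The Tcp1 summits lay outside the start windows of Tcp1 and Mrpl18, which hold none of the 4 strings.

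Hspd1 and Hspe1 had a peak in more libraries than any CCT gene: 2 WT, 3 Het and 1 Homo. Their spans overlap on chromosome 1 (Hspd1 55077833 to 55088243, Hspe1 55088148 to 55091317), so they share every peak and count as 1 site. At the main region the fold was 10.5 and 16.8 in WT replicates 2 and 3, 10.9, 12.0 and 10.4 in Het replicates 1 to 3, and 5.98 in Homo replicate 3. The Homo value lay below the 5 others. It rested on 82 MYC reads over a scaled background of 10.7, whereas Het replicate 3 had 65 reads over 4.32 and WT replicate 3 had 89 over 3.44. The read number in the Homo library was thus inside the range of the others (65 to 116), and its background was higher than the 3.44 to 7.50 of the others. These numbers are not scaled for MYC depth between libraries. That depth was 12.4 reads per kb in Homo replicate 3, 8.29 in Het replicate 3 and 11.1 in WT replicate 3. The peak ranked 160 of 303 in Homo replicate 3 and 36 of 378 in Het replicate 3, a list of similar length. The summits lay within 65 bp of each other, 552 to 617 bp inside Hspd1 from its outer start and 241 to 306 bp inside from the inner start, which is 457 to 522 bp before the Hspe1 start. No window in the table reached these summits. The nearest string in a window was a CACGCG shared by the inner Hspd1 and the Hspe1 windows (chr1:55087903-55087908), from whose centre the summits lay -279.5 to -214.5 bp.

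A second region of the pair lay on the other side of the Hspd1 start, 175 to 234 bp before it and 270 to 329 bp inside Hspe1, with folds of 4.43 and 11.4 in WT replicates 2 and 3 and 4.07 in Het replicate 1. In each of these libraries it was weaker than the main region. In Het replicate 2 a single peak of 1305 bp covered both places and had its summit in the main one. Het replicate 3 and Homo replicate 3 had the main region alone. In the Hspd1 window printed above, the CACGAG (chr1:55088421-55088426) lay -5.5 to 53.5 bp from these summits, and the CACGTG (chr1:55088318-55088323) was farther off, at 97.5 to 156.5 bp.

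**Figure D3:**
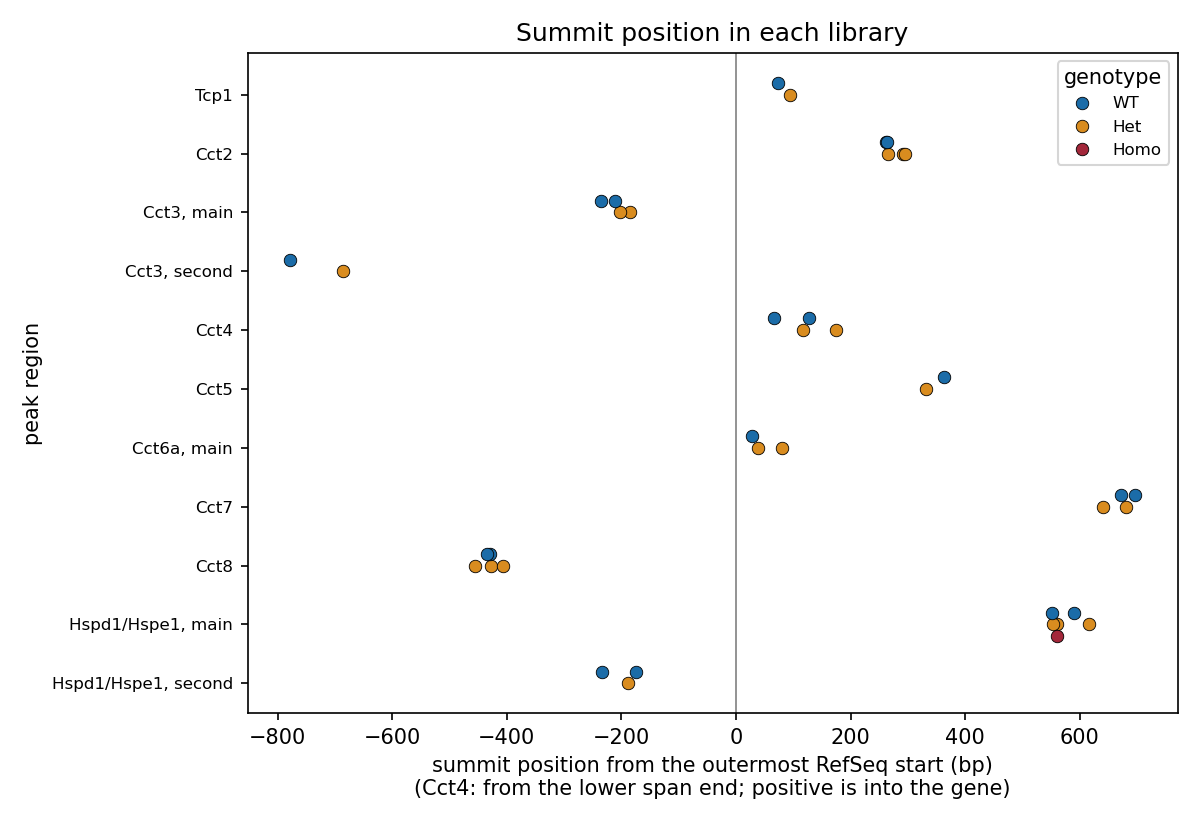
Distance in bp of each summit from the outermost RefSeq start of the gene (for Cct4 from the lower end of its span, for the shared Hspd1/Hspe1 regions from the Hspd1 start), positive into the gene, with 1 point per library coloured by genotype. Within each region the libraries lie within 108 bp, the Homo point lies within the range of the WT and Het points, and the second Cct6a region, at the far end of its span, is not drawn.

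Over the 22 chaperonin summits that fell in a RefSeq start window of any gene, 10 (45.5%) lay within 20 bp of the centre of 1 of the 4 strings. Over all peaks of the series with a summit in a window, 1088 of 2843 (38.3%) did. The share of the chaperonin summits was near that of all peaks. In both counts a site enters once per library with a peak there, so the summits are not separate sites. The 10 came from the Cct2, main Cct3, Cct5 and second Hspd1/Hspe1 regions.

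Within the lists, the chaperonin peaks ranged from near the top to the foot. Of the 12 peaks in WT replicate 3, 7 exceeded the median fold of the list (6.80), and 4 were in its top 10% by p. In Het replicate 2, 5 of 8 exceeded the median of 7.19 and 4 were in the top 10%. In WT replicate 2, 2 of 7 exceeded the median of 6.73, in Het replicate 1, 6 of 11 exceeded 6.72, and in Het replicate 3, 1 of 3 exceeded 6.84. The single Homo peak (5.98) was below the median of its list (6.81). Cct2, the main Cct3 region and the main Hspd1/Hspe1 region supplied most of the high ranks.

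**Figure D4:**
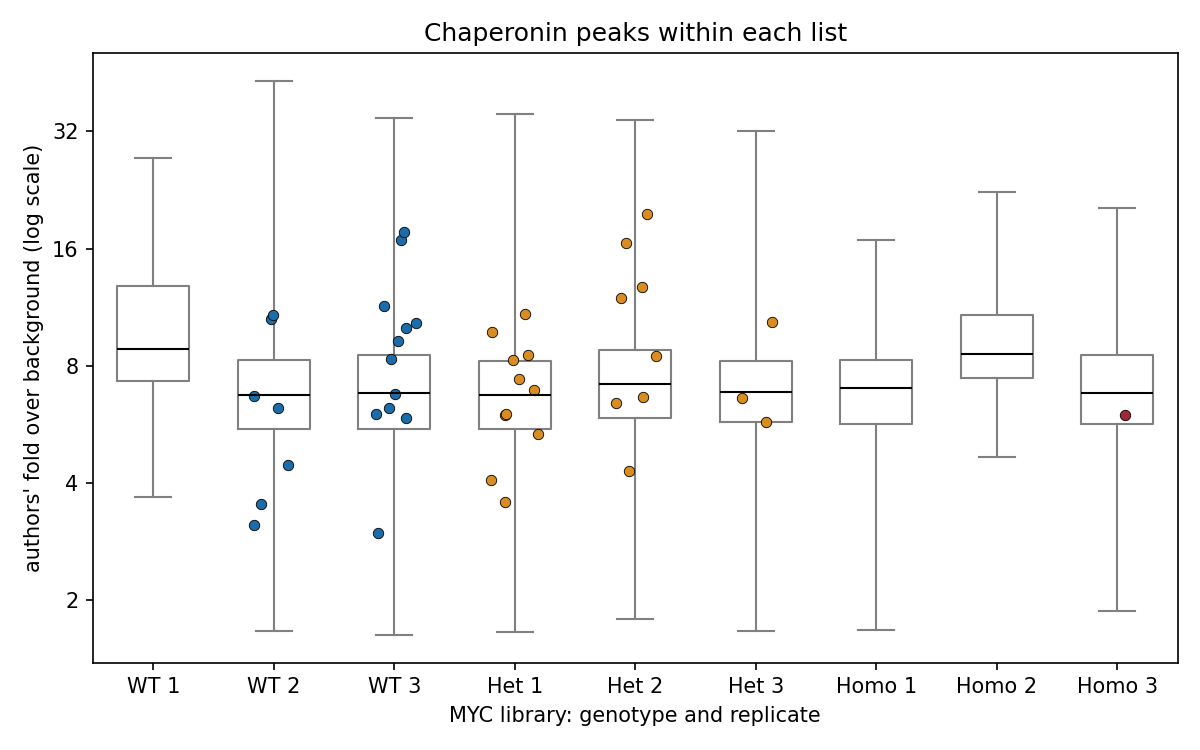
The authors' fold over background on a log axis for all peaks of each MYC list (boxes: quartiles and median; whiskers: lowest and highest peak) and for the chaperonin peaks (points, coloured by genotype, spread sideways at random). The points of WT 2 run from 3.11 to 10.8 and those of WT 3 from 2.97 to 17.7, on both sides of the list medians of 6.73 and 6.80, and WT 1, Homo 1 and Homo 2 have no point.

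Recovered from the authors' fold and p, MYC reads at the summit ran from 32 (Cct6a in Het replicate 2) to 117 (Cct2 in Het replicate 1), and the scaled background from 2.15 to 17.5 reads. The Cct6a start peak of WT replicate 3 had more than 1 solution and was left out. The 2 chaperonin peaks with the highest background, at the second Hspd1/Hspe1 region in Het replicate 1 (17.5) and at Cct7 in WT replicate 2 (17.5), had folds of 4.07 and 3.11.

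**Figure D5:**
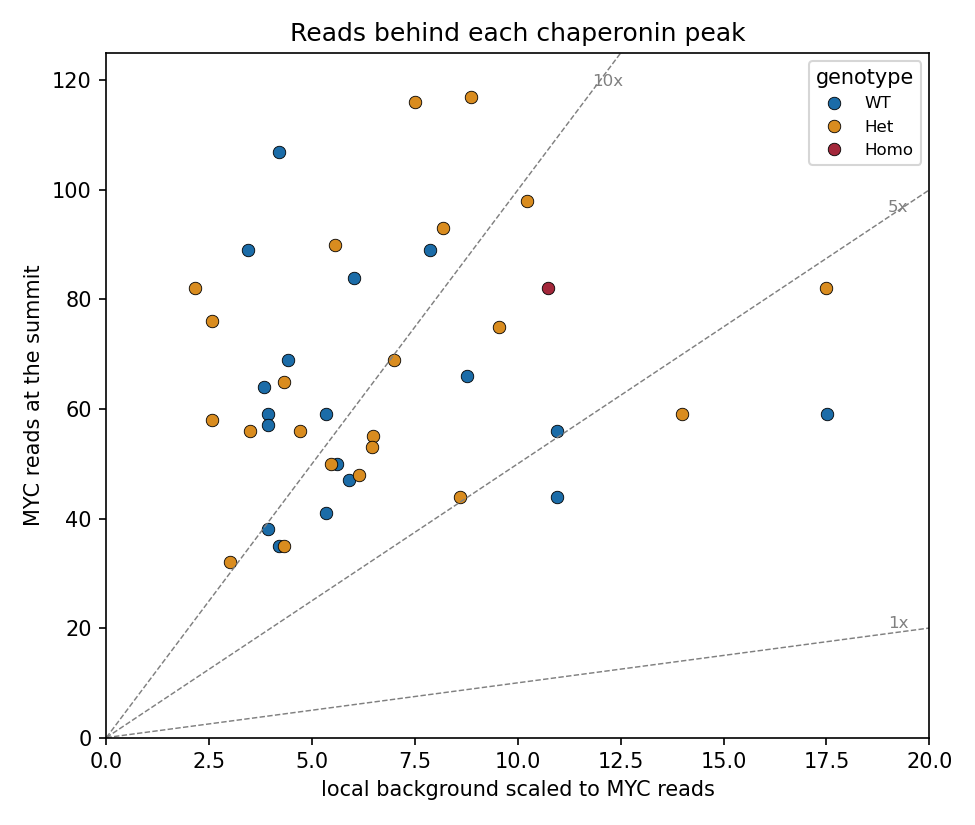
MYC reads at the summit against the local background scaled to MYC reads for each chaperonin peak, coloured by genotype, with dashed lines at 1, 5 and 10 times the background. The points span 32 to 117 reads and 2.15 to 17.5 background reads, and the Homo point is at 82 and 10.7.

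Each of the 10 genes had a peak in 1 or more libraries of both WT and Het tumours. The number with a peak in 2 or more WT but 0 Het libraries was 0 of 10 (0.649% of all genes), and it was 0 of 10 the other way round (0.0868%). In at least 2 WT libraries there were 7 of 10 (4.66% of all genes), and in at least 2 Het libraries 8 of 10 (3.98%), the additional gene being Cct6a. Between WT and Homo, 5 genes (Cct2, Cct3, Cct4, Cct7 and Cct8) had a peak in 2 or more WT but 0 Homo libraries, compared with 3.7% of all genes, and between Het and Homo these 5 and Cct6a did, compared with 3.04%. In the opposite directions there were 0 chaperonin genes and 0% of all genes. In any Homo library 2 of 10 had a peak (1.03% of all genes). Of the 1019 genes with a peak in at least 2 WT libraries 20.5% also had one in a Homo library, and 2 of the 7 such chaperonin genes did. Among the 872 genes with one in at least 2 Het libraries it was 23.6%, and 2 of 8. With Hspd1 and Hspe1 sharing their peak, these counts are near the share of all genes. The 5 genes of WT against Homo became 0 without WT replicate 2 or without WT replicate 3, and the 6 of Het against Homo became 2 without Het replicate 1 or without Het replicate 2.

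By the exact permutation test of peak presence over the 3 genotypes, run on all 3262 genes with a peak in at least 1 library and adjusted by Benjamini-Hochberg, no gene passed (0% of genes, and 0% at an unadjusted p of 0.05 as well). Cct2 and Cct8, present in 2 of 3 WT, 3 of 3 Het and 0 of 3 Homo libraries, had p = 0.143 in this exact test (adjusted p = 1), which was the smallest value of any gene. Hspd1 and Hspe1 had p = 0.679, Cct3, Cct4 and Cct7 p = 0.357, Cct6a p = 0.679 and Tcp1 and Cct5 p = 1 in the same exact permutation test. With 3 against 3 libraries an exact two-sided test cannot go below 0.1, and over the 3 genotypes a present-or-absent value cannot go below 0.0357. After adjustment over 3262 genes, a value at that floor passes only if most of the genes tested reach it. That no gene passed therefore carries little information.

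Het replicate 2 had the lowest MYC depth (7.80 reads per kb) and 9 chaperonin genes. WT replicate 1, which stood apart as described above, had 14.8 reads per kb and 0 genes. Whether the counts follow depth over the libraries was not tested. When the reads and background of each listed peak were scaled down, by calculation, to the depth of the shallowest input (a setting chosen after seeing the data) and the same limit (-log10 p of at least 10) was set in every library, 7 of 10 chaperonin genes had a peak in at least 2 libraries, against 3.8% of all genes. Cct2 kept all 5 libraries and Hspd1 and Hspe1 all 6, including Homo replicate 3. Cct8 kept 2, WT replicate 3 and Het replicate 2 (5 under the p limit alone), and Cct3, Cct4 and Cct7 kept 3 each. Tcp1 and Cct5 had none left (1 library each under the p limit alone), and Cct6a had 1, Het replicate 1 (3 under the limit alone). At the Cct6a start itself only Het replicate 2 passed the limit, with −log10 p of 10.5 against 5.95 in Het replicate 1. The library left for Cct6a thus rests on the region 13 to 38 bp from the Sumf2 start, and no peak at the Cct6a start was left. Genes with a peak in 2 or more WT but 0 Homo libraries numbered 5 as deposited, 3 under the limit alone and 1 (Cct2) under the limit with scaling. Those with 2 or more Het but 0 Homo libraries numbered 6, 6 and 4. The middle 6 includes Cct6a, which passed in Het replicate 1 through the region near the Sumf2 start. Shares of all genes under these 2 genotype rules are not given for the limit or the scaling. The share with a peak in at least 2 libraries was 8.03% as deposited, 6.16% under the limit alone and 3.8% with scaling. The part of list length and depth in the lower Homo counts was not tested.

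The genes whose pattern of rank over the 9 libraries was most like that of Hspd1 (smallest mean absolute difference in rank percentile within the list, 0 where no peak) were Hspe1 with a difference of 0, followed by Prmt1 (4.57 percentile points), Pus7 (5.63), Tet3 (5.71) and Eif5a (5.81). Each had a peak in 6 libraries.

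Other chaperone genes were looked up in the same lists. Of 10 prefoldin and CCT co-chaperone genes, which hand unfolded actin and tubulin to the ring or adjust its work, 1 had a peak in at least 2 libraries: Txndc9, in 1 WT and 1 Het library with folds of 3.90 and 7.19. Of 5 CCT relatives (Cct6b, Cct8l1, Mkks, Bbs10 and Bbs12) none had a peak. Of 12 CCT substrate genes 1 had a peak in at least 2 libraries, Tuba1b in 2 WT and 2 Het, while Tubb4b, Fzr1 and Gnb1 each had one in 1 WT library. The base rate beside these counts is the 8.03% given above.

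Of 10 genes of the mitochondrial HSP70 system and proteases 4 had a peak in at least 2 libraries. The base rate for this and the following lists is again 8.03% of all genes. Lonp1, a matrix protease, and Hspa9, the mitochondrial HSP70 that passes imported proteins onward, each had one in 2 WT and 2 Het libraries, with folds of 9.62 to 15.7 and 7.11 to 13.9. Htra2 (1 WT and 1 Het) and Afg3l2 (2 WT) followed. Of 20 cytosolic HSP70 and HSP90 genes and co-chaperones 8 did. Fkbp4, an HSP90 co-chaperone, was bound by this measure in 2 WT, 3 Het and 1 Homo library, with folds of 4.28 to 7.50. It was the only gene of the 6 lists with a Homo peak, which 1.03% of all genes had. Hsp90aa1 had one in 2 WT and 3 Het libraries with folds of 5.33 to 19.5, Hsf1, the heat shock transcription factor gene, in 2 WT and 2 Het, and Stub1 in 2 WT and 1 Het. Of 13 chaperone genes of the endoplasmic reticulum 5 did, led by Canx and P4hb in 2 WT and 2 Het libraries each, with Pdia4 (2 Het) and Hsp90b1 (1 WT and 1 Het) next. The median number of libraries was 0 in the first 3 of the 6 lists and 1 in the other 3, against 4 in the chaperonin genes.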

How the data were processed

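Peak lists of the 9 MYC libraries were used, 1 list per library. The 9 input libraries had no separate file here. Per the submitters' processing notes, the tools were MACS2 2.0.10.20131216, HOMER, Picard and Bowtie2 2.2.3, with build mm10. No source used here gives the peak threshold. Each deposited list gives the authors' fold enrichment (a ratio), −log10 p and −log10 q, an integer score and the summit offset. Groups and replicate numbers came from the sample titles.

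Python 3.11.15, pandas 2.3.3, numpy 2.4.6 and scipy 1.17.1 were used. Gene spans and start windows came from RefSeq (GRCm38.p6, the assembly behind mm10). Whole MYC reads and background per peak were solved from fold (with 1 added to both terms) and p with a tolerance of 0.02 reads, which gave 1 solution for 96.4% to 99.7% of peaks per list. The solver and the permutation test were tested on simulated data. The members and lists were chosen with earlier results of these data known. Named were the 10 genes, genes ending within 1 kb of their summits, up to 4 genes per list with a peak in the most libraries, and the 5 genes most like Hspd1. The E-box strings and the depth thinning were chosen after seeing the data. The listed Grpel1 and Grpel2 were not analysed here.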

Additional observations from a re-analysis of the deposited data

How the results depend on the processing

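The number of chaperonin genes with a peak in at least 2 libraries was 10 as deposited, 8 to 10 with each library left out, 5 with summits within 250 bp of an end and 1 with all lists shortened to their best 51 by p. Of all protein-coding genes, 8.03%, 5.15% to 8.03%, 5% and 0.169% had one, in the same order. The genes with a peak in at least 2 WT and no Homo library numbered 5, and 3 at −log10 p of at least 10, 3 at −log10 q of at least 5, 3 at a fold of at least 5, 3 within 250 bp, 1 at −log10 p of at least 10 with depth scaled to the shallowest input, 0 with lists cut to the shortest, and 0 to 7 with each library left out. Those with at least 2 Het and no Homo library numbered 6, and 3 within 250 bp, 0 with lists cut to the shortest and 2 to 8 with each library left out. Those with at least 2 Het and no WT library numbered 0, and 0 to 1 with each library left out (1 without WT replicate 3). For these genotype counts the shares of all genes are given above for the lists as deposited alone. Whether the counts fell more than those of all genes can therefore not be told. The share of all genes with a peak in at least 2 libraries was 6.16% at −log10 p of at least 10 and 6.9% at −log10 q of at least 5. It was 6.88% at a fold of at least 5 and 3.8% with depth scaled. Of the settings that ended or moved a count by over 1.5 times, the cause was not tested, except that shorter lists and fewer libraries hold fewer peaks by construction.

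No gene passed the exact permutation test under any of the settings run. Passing after adjustment needed most of the genes tested to lie near the smallest possible p, so this carries little information. The unadjusted count of that test at 0.05 was 0 as deposited and highest, at 201, without WT replicate 1. With the replicate number as a block (216 assignments in place of 1680) 0 genes passed as well, but there a present-or-absent value cannot have an exact permutation p below 0.111, so this count carries no information. Same-numbered libraries did not deviate together throughout. For each gene, the deviation of a library's presence from its genotype mean was taken. The correlation of these deviations over genes ran from -0.276 to 0.317 and exceeded 0.1 in 3 of 9 pairs, so the numbers were not taken to pair the libraries. Of the 9 libraries, 4 had their highest correlation with a library of their own number, and 0 had it in both other genotypes. Leaving out WT replicate 1 and Homo replicate 2 together could not change the counts of chaperonin genes above, because neither list holds a chaperonin peak. A gene without a peak in a list is one where none was called, which is not absence of MYC.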
